A study of Mus musculus with 18 samples.

Results

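The DNA replication machinery is described here in mouse embryonic stem cells, in cells differentiated from them, and after ionizing radiation (IR). Its 44 genes were chosen by function, as the genes for origin licensing, the replicative helicase, the clamp and its loader, the replication protein A (RPA) complex, the replicative polymerases, Okazaki fragment processing and ribonucleotide reductase. Of these, 43 had at least 1 of the 37246 probes of the array under their RefSeq accessions, on 48 probes in all, and Gins1, a GINS subunit, had none. The samples fall into 6 groups of 3, hybridized on 18 Agilent one-color arrays: unirradiated ES and ED cells, and the same cells after 10 Gy of IR, taken at 15 min (ESRE and EDRE) and at 4 h (ESRL and EDRL). ES cells were wild-type, primary, early passage cells from blastocysts, kept without feeder cells in leukemia inhibitory factor (LIF). ED cells were their isogenic progeny after growth without LIF, an undirected differentiation for which no sort is named. Nothing in the labels says that the 3 samples of a group were separate cultures, so the p-values measure the spread between these samples, which may be technical. The processed signals in the deposited scanner files are not scaled between arrays, while the value table the authors deposited has a constant taken off each array. Levels are given here as the log2 of the processed signal minus that of the array's 75th percentile, so that 0 is the brightness of that percentile. SE stands for the standard error of a change. Different genes have different probes, so levels were compared only within a gene.

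Replication starts from origins marked by the origin recognition complex (ORC), on which Cdc6 and Cdt1 load the Mcm2 to Mcm7 helicase in the G1 phase, while geminin, the product of Gmnn, blocks Cdt1 afterwards. In S phase Cdc45 and the GINS subunits activate the helicase with the help of Mcm10, RPA covers the single strands, polymerase alpha with primase lays down primers, the RFC complex loads the PCNA clamp, and polymerases delta and epsilon copy the strands. Fen1, Dna2 and Lig1 process and join the Okazaki fragments, and ribonucleotide reductase supplies the deoxyribonucleotides. Mouse ES cells cycle fast with a short G1 phase, and many of these genes are targets of the E2F transcription factors.

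RefSeq promoter windows of the GRCm38.p6 build, from 250 bases before to 50 after a start, were given for 36 of the 44 genes. The windows were searched on both strands for 4 E2F words, TTTCCCGC, TTTCGCGC, TTTGCCGC and TTTGGCGC, which may overlap each other. At least 1 of them was found in 15 of the 36 genes, or 41.7%, against 2.6% of the 27025 genes with a window. The CCAAT word was found in 63.9% of the 36 genes and in 41.1% of all, and TTTGAA, the core of the cell cycle homology region, in 13.9% and 20.2%. The windows of 4 genes on which the comparisons below turn are shown for how they differ in these letters, each 5′ to 3′ with the E2F words in capitals. They are those of Orc1 and Mcm10, the largest falls in ED cells among the tested genes (chr4:108579204-108579503, plus strand, and chr2:5012742-5013041, minus strand), of Mcm6, whose value was higher in replicates 2 and 3 of EDRE (chr1:128359656-128359955, minus strand), and of Dna2, which was lower in ED cells and higher in irradiated ES cells (chr10:62946779-62947078, plus strand). Cdt1, with 1 E2F word, and Orc4, with 0, were also called as higher in EDRE, and their windows are not shown.
Orc1: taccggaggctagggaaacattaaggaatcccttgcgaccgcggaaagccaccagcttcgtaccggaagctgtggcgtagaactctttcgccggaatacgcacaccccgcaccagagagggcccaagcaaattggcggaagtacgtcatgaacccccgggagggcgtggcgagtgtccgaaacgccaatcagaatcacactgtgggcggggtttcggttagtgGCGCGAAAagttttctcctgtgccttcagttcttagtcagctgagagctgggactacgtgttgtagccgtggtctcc
Mcm10: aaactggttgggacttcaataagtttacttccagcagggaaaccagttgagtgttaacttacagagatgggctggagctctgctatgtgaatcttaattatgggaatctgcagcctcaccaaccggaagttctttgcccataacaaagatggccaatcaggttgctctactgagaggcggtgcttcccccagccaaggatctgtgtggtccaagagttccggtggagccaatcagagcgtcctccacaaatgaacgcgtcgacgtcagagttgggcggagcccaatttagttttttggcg
Mcm6: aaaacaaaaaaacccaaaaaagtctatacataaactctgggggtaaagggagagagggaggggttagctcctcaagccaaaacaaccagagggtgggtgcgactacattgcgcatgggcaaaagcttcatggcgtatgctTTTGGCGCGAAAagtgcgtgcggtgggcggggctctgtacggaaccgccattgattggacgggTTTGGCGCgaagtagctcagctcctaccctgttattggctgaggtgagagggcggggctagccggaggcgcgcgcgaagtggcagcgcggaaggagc
Dna2: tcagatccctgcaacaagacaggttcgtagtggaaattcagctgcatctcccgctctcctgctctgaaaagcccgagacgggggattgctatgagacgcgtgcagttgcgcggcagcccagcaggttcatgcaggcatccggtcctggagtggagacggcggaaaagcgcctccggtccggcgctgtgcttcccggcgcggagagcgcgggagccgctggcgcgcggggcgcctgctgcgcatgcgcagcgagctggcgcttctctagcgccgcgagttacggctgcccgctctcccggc
Orc1 held 1 E2F word, 27 bases before the start, and Mcm6 held 3, at 110, 106 and 47 bases before it. Mcm10 and Dna2 held none in this window. The Mcm10 window ends in TTTGGCG, all but the last letter of TTTGGCGC, and a word cut by the edge would not be counted. Of the 6 genes lower in ED cells, 5 had a window and 1 of those held an E2F word, and of the 19 tested genes with a window that did not pass, 10 did.

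The 75th percentile of the signal lay between 2806 and 4268 on 15 of the arrays, was 1952 on replicate 1 of ESRL, and was 875 and 1155 on replicates 2 and 3 of EDRE. On these last, the dim arrays, between 23.8% and 24.4% of the spots were marked as outliers by the scanner software, against 3.33% to 11.1% on the others. The arrays carried 6 scan times, no scan time held a group with its control, and scan time and group therefore cannot be told apart by a fixed effect. Replication genes lost more spots to the outlier marks than other genes did, 38.8% of their spots on the ES arrays against 8.36% over all genes, and 14.0% against 3.49% on the ED arrays. Among 4671 genes of like brightness the share was 20.8% on the ES arrays, against 46% for the 21 replication genes in that range. On the ED arrays the same 2 shares lay close together, at 9.4% and 11.1%. No replication gene was saturated, and 41 of the 43 were well above background on all 18 arrays. Marked spots were left out, so that 14 of the 43 genes could not be tested between ED and ES cells. Their values with marked spots kept are given separately below. The cell types were checked on marker genes. All 8 pluripotency markers tested were lower in ED cells, and the summed level of the 9 on the array (relative to the 75th percentile, marked spots kept) was between 568 and 579 on the ES arrays and between 5.04 and 5.83 on the ED arrays, where Zfp42 was not well above background. Of 7 mesenchymal markers 5 were higher, with sums of 31.4 to 33.3 in ES and 407 to 522 in ED, and Thy1 was not well above background in ED cells. The 4 epithelial and endoderm markers tested were lower. The part of this change in cell identity in the results below was not tested, and in cell cultures measured in bulk, fewer cells of a type and less RNA per cell cannot be told apart.

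The comparison of ED with ES cells asks how the machinery differs between stem cells and their differentiated progeny. Of the 29 genes tested, 6 were lower in ED cells (Orc1, Mcm10, Rpa2, Dna2, Gmnn and Mcm2) and 0 were higher, where a gene counts with an adjusted p under 0.05 and a change of more than 2-fold. Over all genes tested, 26.2% were lower and 14.7% higher by the same rule, so that the 20.7% of replication genes that were lower is not above the background. The median change of the 29 genes was -0.40 on the log2 scale, against -0.18 over all genes, and 10 of the 29 lay above the median of all genes. The sign of this median depended on the scaling, since with each array set to its median it was 0.24, against 0.46 over all genes. The replication genes' median minus that of all genes was -0.22, a difference that these scalings leave as it is because they shift all genes of an array alike. It was -0.55 with quantile normalization, -0.39 over probes detected in all groups compared, and -0.35 with marked spots kept. With scan time as a random block Orc1, Mcm10 and Dna2 passed, and Rpa2, Gmnn and Mcm2 did not (adjusted p = 0.0864, 0.0876 and 0.0798).

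Orc1, an ATP-binding subunit of ORC, had the largest fall. Its levels were 2.57, 2.58 and 2.498 in the 3 ES samples and 0.51, 0.24 and 0.29 in the 3 ED samples. The samples of each cell type lay close together and far from the other, and Orc1 fell by 2.21 log2 units (SE 0.14, adjusted p = 2.83e-08). Mcm10, the helicase activation factor, was at 4.29 and 4.35 (no usable spot on replicate 2) in ES and at 2.55, 2.43 and 2.36 in ED, and it fell by 1.88 log2 units (SE 0.16, adjusted p = 7.85e-07). Both were lower in every ED sample than in any ES sample, and both passed the threshold in all 14 other settings tried and in all 18 fits without 1 array, with log2 changes from -2.38 to -1.56 for Orc1 and from -1.94 to -1.23 for Mcm10 in those settings.

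Rpa2, the middle subunit of RPA, was at 4.79, 4.67 and 4.94 in ES cells and at 3.02, 3.44 and 3.70 in ED cells. It fell by 1.41 log2 units (SE 0.21, adjusted p = 1.03e-04), with a wider spread among the ED samples than among the ES samples. Dna2, the nuclease and helicase of long flaps, was at 0.60, 0.88 and 0.98 in ES and -0.51, -0.69 and -0.38 in ED, and fell by 1.35 log2 units (SE 0.22, adjusted p = 1.96e-04). Gmnn was at 3.85, 3.86 and 3.68 in ES and 2.32, 2.73 and 2.74 in ED, and fell by 1.20 log2 units (SE 0.21, adjusted p = 4.16e-04). Mcm2 was at 3.53, 3.53 and 3.31 in ES and 2.29, 2.505 and 2.33 in ED, and fell by 1.08 log2 units (SE 0.14, adjusted p = 3.37e-05). In none of these genes did the ED and ES samples overlap, but such separation was common. Of all genes measured on all arrays of both groups, 41.9% lay below every ES sample and 28.6% above. Of the 20 replication genes so measured, 14 lay below and 2 above. With each array set to its median, the changes of Rpa2, Dna2, Gmnn and Mcm2 were -0.77, -0.70, -0.56 and -0.43 and no longer passed the 2-fold limit.

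**Figure D1:**
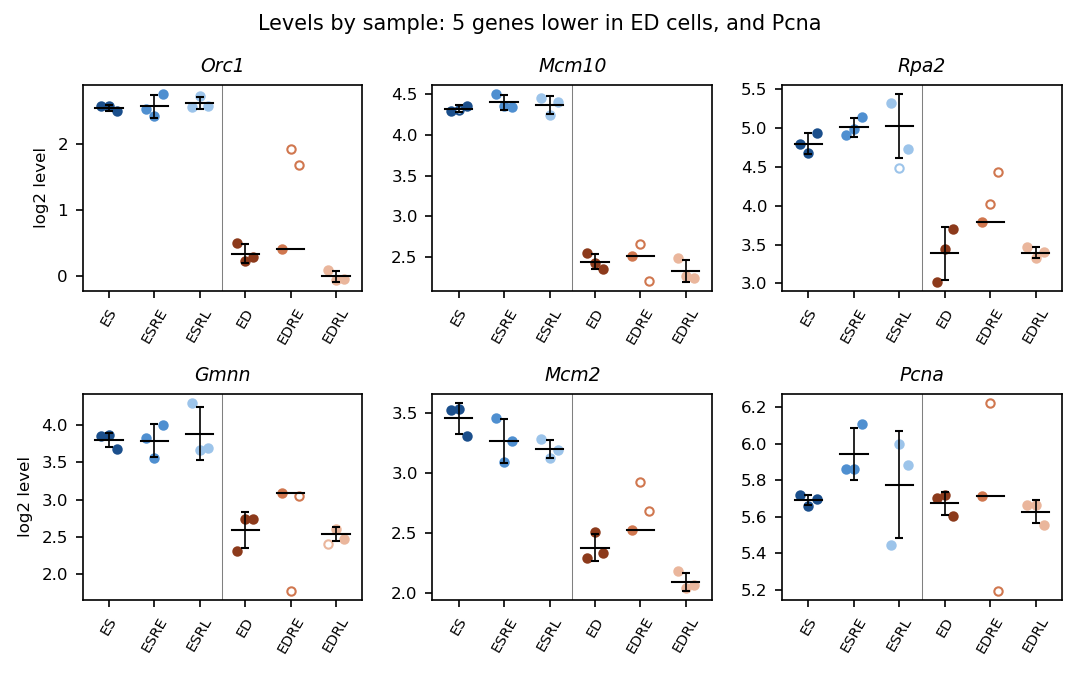
Log2 level relative to the array's 75th percentile (vertical axis) in the 18 samples by group (horizontal axis) for 5 of the 6 genes lower in ED cells, and for Pcna. Filled points are samples, bars the mean and SD of the filled points, and open points spots marked as outliers, which were not used. Orc1 is between 2.498 and 2.58 in ES and between 0.24 and 0.51 in ED, while the levels of Pcna overlap in the unirradiated groups.

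Within the loading complexes the subunits differed. Of the ORC subunits, Orc1 was the only one of the 4 tested on their brightest probes that passed the threshold. Orc3 had a change of -0.47 (adjusted p = 0.126), Orc6 had a change of -0.36 (adjusted p = 0.352) and Orc4 one of 0.54 (adjusted p = 0.197). Among the MCM helicase genes, Mcm2 was the only one of 5 to pass. Mcm4, at 4.44, 4.46 and 4.63 in ES and 4.39 and 4.51 (no usable spot on replicate 3) in ED, had a change of -0.07 (adjusted p = 0.868), and Mcm6 and Mcm7 had changes of -0.27 (adjusted p = 0.492) and -0.40 (adjusted p = 0.271). Mcm3 had a change of 0.63 (adjusted p = 0.186), with 1 usable ES sample. The licensing factor Cdc6, at -1.83, -1.81 and -1.65 in ES and -2.66, -2.37 and -2.502 in ED, had a change of -0.75 (adjusted p = 0.038), which is under the 2-fold limit, and a second probe of Cdc6 gave a similar change of -0.65 (adjusted p = 0.029, marked spots kept). Cdt1 was at 4.58, 4.57 and 4.66 and at 4.12, 4.14 and 4.35, a change of -0.40 (adjusted p = 0.296). Its inhibitor Gmnn is described above.

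Of the helicase activators besides Mcm10, Gins4 was at 0.83, 1.20 and 0.92 in ES and 0.15, 0.10 and -0.17 in ED, a change of -0.96 (adjusted p = 0.00995). It lay just under the 2-fold limit and passed it with quantile normalization, at -1.02. Cdc45 was at 2.81, 2.79 and 2.91 and 2.495, 2.43 and 2.78, with a change of -0.27 (adjusted p = 0.296) and an interval from -0.70 to 0.16 at 95% confidence, and Gins2 had a change of -0.24 (adjusted p = 0.247). For the sliding clamp, Pcna was at 5.72, 5.66 and 5.69 in ES and 5.70, 5.72 and 5.60 in ED. Its change was -0.02 (adjusted p = 0.949), with an interval from -0.36 to 0.33, which leaves out a 2-fold change in either direction. Of its loader, Rfc4 had a change of -0.74 (adjusted p = 0.029), under the 2-fold limit, Rfc3 had a change of -0.08 (adjusted p = 0.747), and Rfc2, with 1 ES and 2 ED samples, one of -0.97 (adjusted p = 0.238).

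The polymerase genes did not have changes of 1 sign. Pola1, the catalytic subunit of polymerase alpha, was higher in every ED sample, at 1.94, 1.85 and 1.91 in ES and 2.55, 2.65 and 2.90 in ED. Its change of 0.79 (SE 0.17, adjusted p = 0.00487) had the only adjusted p under 0.05 among the genes that were higher in ED. Prim1, the small primase subunit, had a change of 0.81 (adjusted p = 0.0641) with 1 ED and 2 ES samples. Pold1, the catalytic subunit of polymerase delta, was at 3.80, 3.63 and 3.62 in ES and 2.64, 2.76 and 2.80 in ED, a change of -0.95 (adjusted p = 2.81e-04), and Pold2 had one of -0.72 (adjusted p = 0.0295). Both are under the 2-fold limit, and Pold3 had a change of -0.13 (adjusted p = 0.682). Rpa3 had a change of 0.15 (adjusted p = 0.634). Rrm1, the large subunit of ribonucleotide reductase, was at -2.29, -2.40 and -2.42 in ES and -1.90, -1.77 and -1.56 in ED, with no overlap but a change of 0.63 (adjusted p = 0.191). Without the fold limit, 11 of the 29 genes were lower and 1 was higher, against 31.6% and 19.2% of all genes. With each array set to its median, 5 genes, Pola1, Prim1, Rrm1, Mcm3 and Orc4, passed as higher in ED, and 2, Orc1 and Mcm10, as lower, where all genes gave 26.3% and 18.2%.

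**Figure D2:**
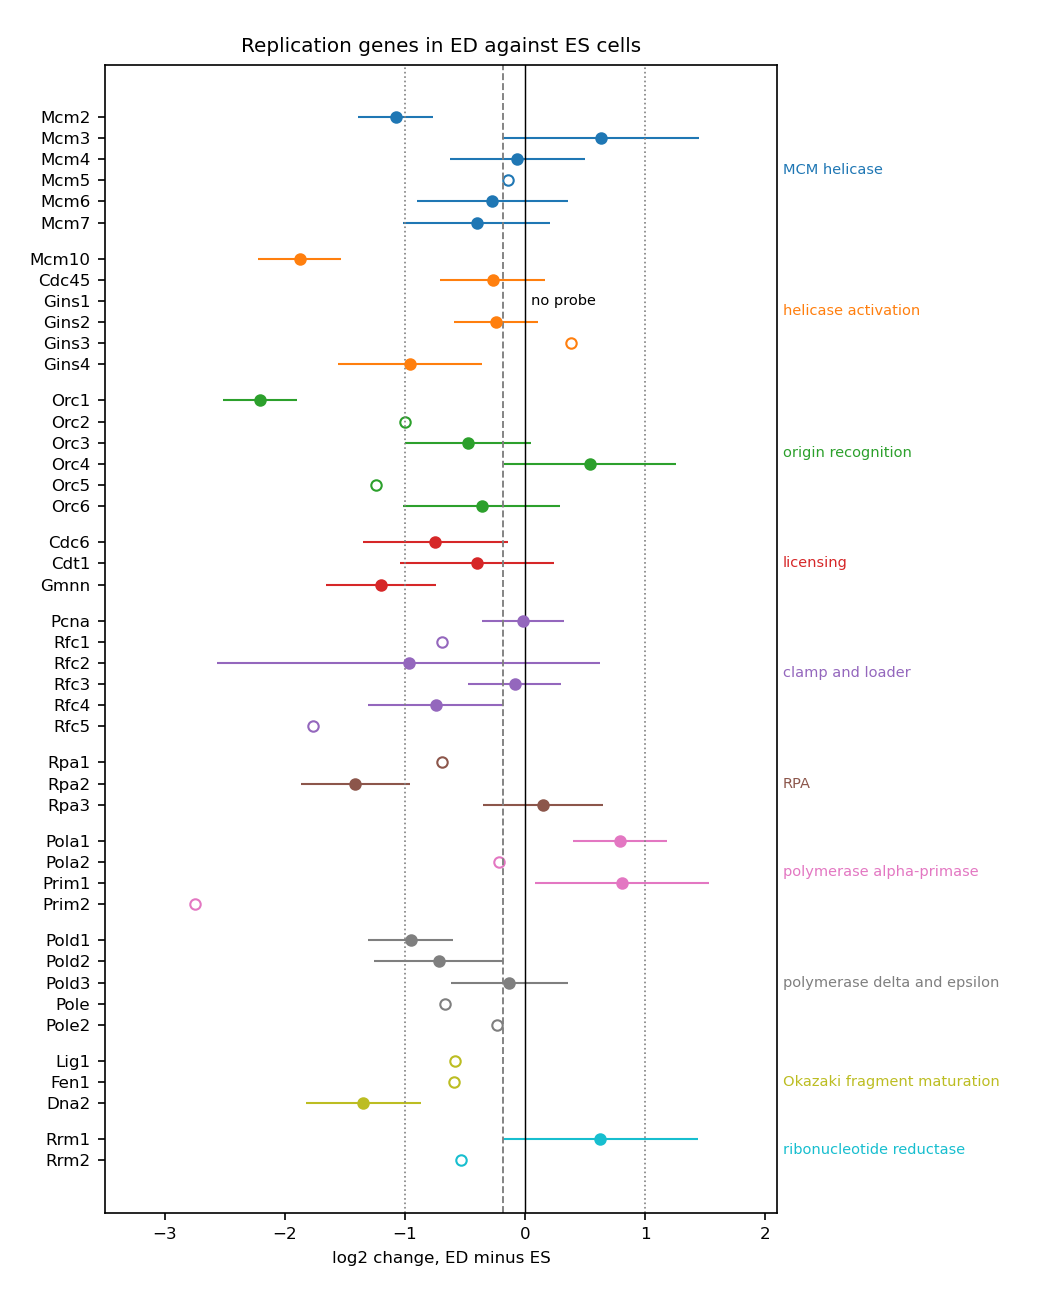
Log2 change in ED against ES cells (horizontal axis) for each of the 44 genes, grouped by complex (vertical axis). Filled points are the tested genes with 95% confidence intervals, open points the genes without a test, from spots marked as outliers and shown without an interval, the dashed line the median of all genes (-0.18), and the dotted lines the 2-fold limit. Orc1 and Mcm10 have the lowest values among the tested genes, and Pola1 and Prim1 the highest.

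None of the 14 genes without a test had a usable spot of its brightest probe on the ES arrays. With all marked spots kept, 43 genes were tested, 9 were lower and 0 higher, against 25.9% and 14.9% of all genes, and 36 of the 43 had a negative change. Beside the 6 genes above, these were Prim2, Rfc5 and Orc5, each resting on spots that the scanner software marked. Prim2, the large primase subunit, was then at -2.83, -2.80 and -2.54 in ES and -5.37, -5.47 and -5.59 in ED, a change of -2.75 (SE 0.32, adjusted p = 2.30e-06). Rfc5, a clamp loader subunit, was at 3.75, 3.65 and 3.40 and 1.87, 1.93 and 1.69, a change of -1.77 (SE 0.21, adjusted p = 2.87e-06), and Orc5 at 0.92, 1.32 and 0.75 and 0.07, -0.10 and -0.71, a change of -1.24 (SE 0.24, adjusted p = 5.28e-04). In each of them the ED samples lay below the ES samples. On the same basis Mcm5 was at -0.66, -0.62 and -0.94 in ES and -0.37, -1.31 and -0.97 in ED, a change of -0.14 (SE 0.42, adjusted p = 0.824). Pole, the catalytic subunit of polymerase epsilon, was at 2.64, 2.74 and 2.57 and 1.60, 2.30 and 2.04, a change of -0.67 (SE 0.35, adjusted p = 0.128). Lig1, the ligase of Okazaki fragments, was at 4.87, 4.49 and 4.74 and 3.85, 4.07 and 4.44, a change of -0.58 (SE 0.29, adjusted p = 0.114), and its second probe gave -0.56 (adjusted p = 0.196). Rrm2, the small and cell cycle regulated subunit of ribonucleotide reductase, was at 3.33, 3.51 and 3.47 and 3.29, 2.78 and 2.65, a change of -0.53 (SE 0.31, adjusted p = 0.177). Fen1 had a change of -0.59 (SE 0.23, adjusted p = 0.0457), under the 2-fold limit. The other 6, Gins3, Orc2, Pola2, Pole2, Rfc1 and Rpa1, lay between -0.999 and 0.38 and none passed on the brightest probe. The second, dimmer probe of Orc2 had usable spots, at 0.99, 0.996 and 1.06 in ES and at 0.04 and -0.29 in ED, and was lower in ED with marked spots left out (-1.14, adjusted p = 0.0128). With a gene counted on any of its probes, 7 of 31 genes were lower, where all genes on their brightest probes gave 26.2%.

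Other genes of the same processes were followed in lists chosen by function. Of 13 origin firing and fork factors tested, 2 were lower in ED, Ticrr, which helps to load Cdc45, at a log2 change of -1.98 and Donson at -1.71 (adjusted p = 1.01e-07 and 1.58e-06), and 1 was higher, Mtbp, by 1.49 (adjusted p = 2.29e-06), with a median of -0.15. Of 9 further polymerase subunits and clamp loaders, Rnaseh2b (-1.62) and Chtf18 (-1.25) were lower and Pold4 (2.08) and Rnaseh2c (1.76) higher. Of 7 chromatin assembly genes, Nasp (-2.78) and Chaf1b (-1.98) were lower and Asf1a (1.29) higher. The nucleotide supply genes had a median of 0.69, 8 of 9 had a positive change and 1, Dut, passed as higher (1.17, adjusted p = 0.025). Of 20 E2F and G1/S regulators, 4 were higher, the cyclins Ccnd1 (3.29) and Ccnd2 (3.98), the inhibitor Cdkn1b (3.101) and Rbl1 (2.06), and 3 were lower, Ccne1 (-3.27), Ccnd3 (-1.91) and Cdkn2a (-4.88). Of 11 mitotic genes 1 was lower, Aurka (-1.08), and 1 higher, Mki67 (1.02). Among these 6 lists, the largest share of genes lower in ED was the 28.6% of the chromatin assembly genes, against 26.2% of all genes. The summed level of the 12 mitotic genes on the array was between 201 and 207 on the ES arrays and between 138 and 181 on the ED arrays, and that of the 43 replication genes between 553 and 580 and between 382 and 430 (marked spots kept). The sums of 2 other lists were higher in ED than in ES, at 173 to 194 in ES and 227 to 258 in ED for the E2F and G1/S regulators and at 44 to 50.2 and 52 to 70.5 for nucleotide supply. In EDRL the mitotic sum was 114 to 121, below ED, and that of the replication genes 397 to 401, within the range of ED. All these sums are relative to the percentile by which each array was scaled. The median change of all genes in ED against ES was -0.18 on that scale. It was 0.46 with each array set to its median, a scale on which the sums were not computed. Which of ED and ES cells had the higher sums is therefore shown for the percentile scale only. The part of the number of cycling cells in the replication genes was not tested.

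The next comparisons ask how the machinery responds to IR in stem cells. At 15 min, 1 of the 27 genes tested, Dna2, was higher in ESRE than in ES and 0 were lower, against 0.445% of all genes called in either direction. At 4 h the same gene was the 1 called in ESRL of 27 tested, where 7.37% of all genes passed, 6.73% as lower and 0.639% as higher. Both comparisons use the same 3 ES arrays. Dna2 was at 0.60, 0.88 and 0.98 in ES, at 2.19, 2.06 and 2.22 in ESRE and at 1.31, 2.32 and 1.92 in ESRL. No irradiated sample overlapped the ES samples, and the ESRL samples were spread more widely (SD 0.51) than those of ESRE (SD 0.09). The change was 1.33 (SE 0.22, adjusted p = 0.0214) at 15 min and 1.03 (SE 0.22, adjusted p = 0.0142) at 4 h. At 15 min the call was lost without any 1 of the 6 arrays of ES and ESRE, where the adjusted p reached 0.118, and at 4 h it was lost without replicate 1 or 2 of ES or replicate 2 or 3 of ESRL. With scan time as a random block the changes were 1.11 and 1.03 and their adjusted p = 1.00.

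Mcm3 had a larger change than Dna2 at 15 min but did not pass. Its levels were 4.61, 4.65 and 4.60 in ESRE and 3.93, 4.23 and 4.36 in ESRL against 2.98 (no usable spot on replicates 2 and 3) in ES, where the marked spots gave 3.42 and 3.44. Its changes were 1.64 (SE 0.37, adjusted p = 0.1) and 1.19 (SE 0.37, adjusted p = 0.0753). With an array of EDRE left out, which enters only the spread, Mcm3 passed as a second gene at both times (without replicate 1 or replicate 3).

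The other genes did not pass the test in irradiated ES cells. Mcm7 was at 6.75, 6.60 and 6.73 in ES and 7.48, 7.30 and 7.51 in ESRE, without overlap, a change of 0.73 (adjusted p = 0.383). Orc1 was at 2.54, 2.42 and 2.76 in ESRE and 2.56, 2.73 and 2.59 in ESRL, with changes of 0.02 (adjusted p = 0.998) and 0.07 (adjusted p = 0.809), and Mcm10 had changes of 0.08 (adjusted p = 0.99) and 0.05 (adjusted p = 0.896). Pcna, at 5.86, 5.86 and 6.11 in ESRE and 5.44, 5.995 and 5.88 in ESRL, had changes of 0.25 (adjusted p = 0.729) and 0.09 (adjusted p = 0.8). Mcm2 was at 3.46, 3.09 and 3.26 and 3.28, 3.13 and 3.19, with changes of -0.19 (adjusted p = 0.826) and -0.25 (adjusted p = 0.307). The licensing genes had changes of 0.08 and -0.10 for Cdc6, 0.33 and 0.42 for Cdt1 and -0.0082 and 0.08 for Gmnn, all with an adjusted p above 0.4. Cdc45 was at 2.80, 2.83 and 2.80 in ESRE and 3.37, 2.47 and 2.80 in ESRL. Rrm1 was at -1.97, -1.85 and -1.93 in ESRE and -3.18, -2.37 and -3.55 in ESRL, with changes of 0.45 (adjusted p = 0.85) and -0.67 (adjusted p = 0.304), and the ESRL samples overlapped those of ES. Pola1 had 1 usable sample in either irradiated group, at 2.55 and 2.01. Mcm5, Pole, Lig1 and Rrm2 had no usable ES sample on their brightest probe and were not tested on it. The second probe of Lig1, with 1 sample in either group, had a change of 0.59 in ESRL (adjusted p = 0.564).

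The median change of the 27 genes was 0.17 in ESRE and 0.09 in ESRL on the log2 scale, against -0.08 and -0.18 over all genes. In each comparison 24 of the 27 lay above the median of all genes, and 21 and 19 had a positive change. The replication genes' median minus that of all genes was 0.25 and 0.26, but 0.11 and 0.12 with normexp and 0.06 and 0.03 with quantile normalization. Of the genes measured on all arrays of both groups, 7 of 21 lay above every ES sample at 15 min and 1 below, and 6 of 20 above and 1 below at 4 h. Over all genes 13.9% lay above and 20.8% below at 15 min, and 10% and 24.3% at 4 h. Of the listed genes outside the machinery, Rnaseh2c, a subunit of RNase H2, was higher at 15 min (1.54, adjusted p = 0.00486) and at 4 h (1.41, adjusted p = 0.00123), and it was the 1 gene of the 9 other polymerase subunits and clamp loaders to pass. Of 8 p53 target genes, which respond to IR, 0 passed at 15 min and 1, Trp53inp1, at 4 h (1.15, adjusted p = 0.00802).

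In ED cells at 15 min, 3 of the 36 genes tested were higher in EDRE than in ED, Cdt1, Mcm6 and Orc4, and 0 were lower, where 4.84% of all genes passed, 2.04% as higher and 2.8% as lower. Cdt1 was at 4.12, 4.14 and 4.35 in ED and 4.33, 6.04 and 5.48 in EDRE, a change of 1.08 (SE 0.30, adjusted p = 0.0421). Mcm6 was at 4.72, 4.68 and 4.65 and 4.85, 6.47 and 5.94, a change of 1.07 (SE 0.29, adjusted p = 0.0417). Orc4 was at 0.22, 0.53 and 1.09 and 0.88, 2.12 and 2.06, a change of 1.07 (SE 0.29, adjusted p = 0.0435). In each gene the high values came from replicates 2 and 3, the dim arrays, and replicate 1 lay near the ED samples. Without the dim arrays the changes were 0.13, 0.17 and 0.27 (adjusted p = 0.84, 0.819 and 0.779) and 0 genes were called. Without replicate 1 of EDRE, which leaves the dim arrays alone, 10 genes were called, a count not set against all genes in that fit. With any other array left out the count lay between 0 and 3. The part of signal brightness in these values was not tested.

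Most other genes had replicate 1 of EDRE as their only usable sample. Mcm7, with 3, was at 6.14, 6.33 and 6.40 in ED and 6.16, 7.78 and 7.27 in EDRE, the same split between replicates, and its change was 0.78 (adjusted p = 0.0958). On the single usable sample Pcna was at 5.71, Mcm2 at 2.52, Cdc45 at 2.80, Gmnn at 3.09, Orc1 at 0.42 and Pole at 2.44, and their changes of 0.04, 0.15, 0.24, 0.50, 0.07 and 0.46 had adjusted p between 0.319 and 0.943. Dna2, also with 1 sample, was at -0.42, a change of 0.11 (adjusted p = 0.882). With marked spots kept, dim arrays included, the changes of Dna2 and Pole were negative, at -0.57 and -0.40. Cdc6 had its lowest values on the dim arrays, at -2.29, -3.88 and -3.33 against -2.66, -2.37 and -2.502 in ED, a change of -0.66 (adjusted p = 0.152). Rrm1 was at -2.53, -0.67 and -0.95, a change of 0.36 (adjusted p = 0.617). The probes of Orc2 went in opposite directions, at -1.06 (adjusted p = 0.386) on the brightest and 1.14 (adjusted p = 0.057) on the second. With marked spots kept they were at -1.30 (adjusted p = 0.0745) and 1.19 (adjusted p = 0.0324). The median change of the 36 genes was 0.14, against 0.03 over all genes.

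**Figure D3:**
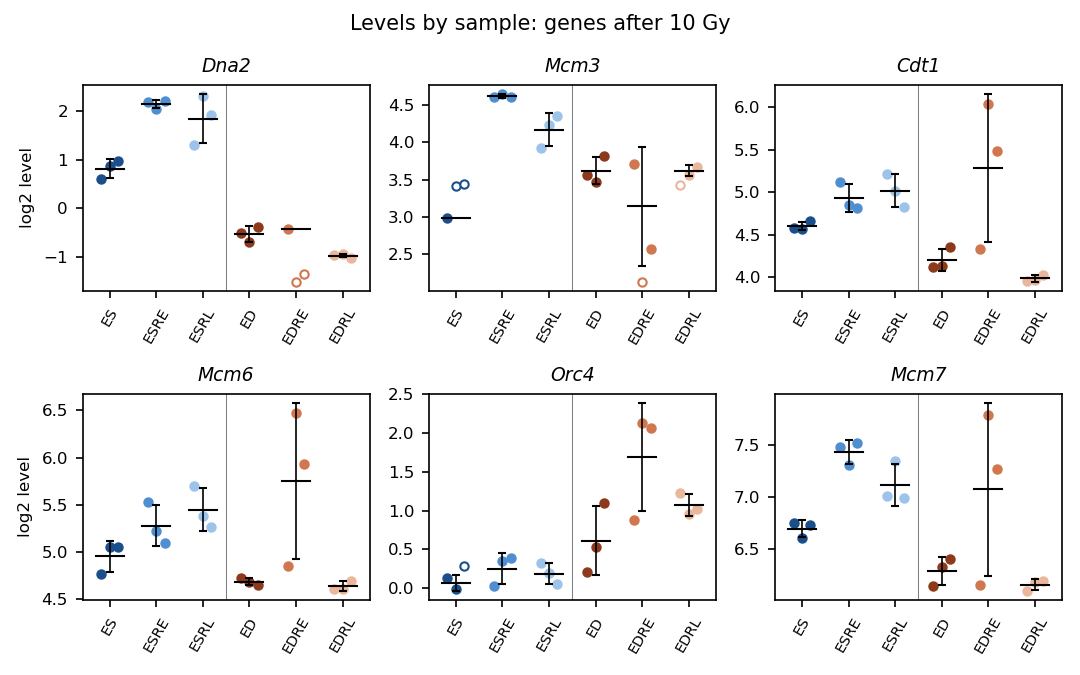
Log2 level relative to the array's 75th percentile (vertical axis) in the 18 samples by group (horizontal axis) for 6 genes after 10 Gy. Filled points are samples, bars the mean and SD of the filled points, and open points spots marked as outliers, which were not used. Dna2 is higher in all ESRE and ESRL samples than in ES, and the higher values of Cdt1, Mcm6, Orc4 and Mcm7 in EDRE come from replicates 2 and 3, with replicate 1 near the ED samples.

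In ED cells at 4 h, 0 of the 37 genes tested passed, against 1.6% of all genes. With limma 3 of the 37 had an unadjusted p under 0.05, against 13.6% of all genes, and the methods' t-test gave 1 before adjustment and 0 after it. The genes that were lower in ED than in ES cells had changes of -0.34 (adjusted p = 0.274) for Orc1, -0.28 (adjusted p = 0.408) for Mcm2, -0.44 (adjusted p = 0.396) for Dna2, -0.11 (adjusted p = 0.785) for Mcm10, -0.05 (adjusted p = 0.953) for Gmnn and 0.01 (adjusted p = 0.991) for Rpa2. Orc1 was at 0.10, -0.05 and -0.04 in EDRL, Mcm2 at 2.18, 2.04 and 2.06 and Dna2 at -0.96, -0.93 and -1.01, in each case below every ED sample. Pcna was at 5.67, 5.66 and 5.55, Cdc45 at 2.53, 2.59 and 2.65 and Cdt1 at 3.96, 3.97 and 4.03, with changes of -0.05, 0.02 and -0.21. Cdc6 was at -2.99, -3.07 and -2.82, a change of -0.45 (adjusted p = 0.532), and Rrm1 at -2.20, -2.28 and -2.001, a change of -0.42 (adjusted p = 0.704). Rrm2 was at 3.22 and 2.96 (no usable spot on replicate 2) against 2.78 and 2.65 (no usable spot on replicate 1) in ED, a change of 0.38 (adjusted p = 0.602). Mcm5 was at -1.20 and -0.70 (no usable spot on replicate 3), Pola1 at 2.78 and 2.77 (no usable spot on replicate 2) and Pole at 1.92 (no usable spot on replicates 1 and 2). Prim2 had the lowest value, -1.08 (adjusted p = 0.227), and passed with only the 2 groups in the fit.

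The median change of the 37 genes in EDRL was -0.11, against -0.10 over all genes, and 18 of the 37 lay above the median of all genes. Of 24 genes measured on all 6 arrays, 11 lay below every ED sample and 1 above, where all genes gave 30.4% and 14.4%. In the same samples 5 of 9 p53 target genes were higher, against 1.35% of all genes, Fas by 2.68, Trp53inp1 by 2.22, Btg2 by 2.18, Ccng1 by 1.61 and Mdm2 by 1.39 (adjusted p = 1.16e-05, 1.60e-04, 0.0144, 0.00363 and 1.09e-04). Of 12 mitotic genes, 1 was lower, the kinase Plk1, which fell by 1.32 (adjusted p = 0.0147), and the median of the list was -0.56. None of the nucleotide supply, chromatin assembly, origin firing or E2F and G1/S genes passed at 4 h.

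**Figure D4:**
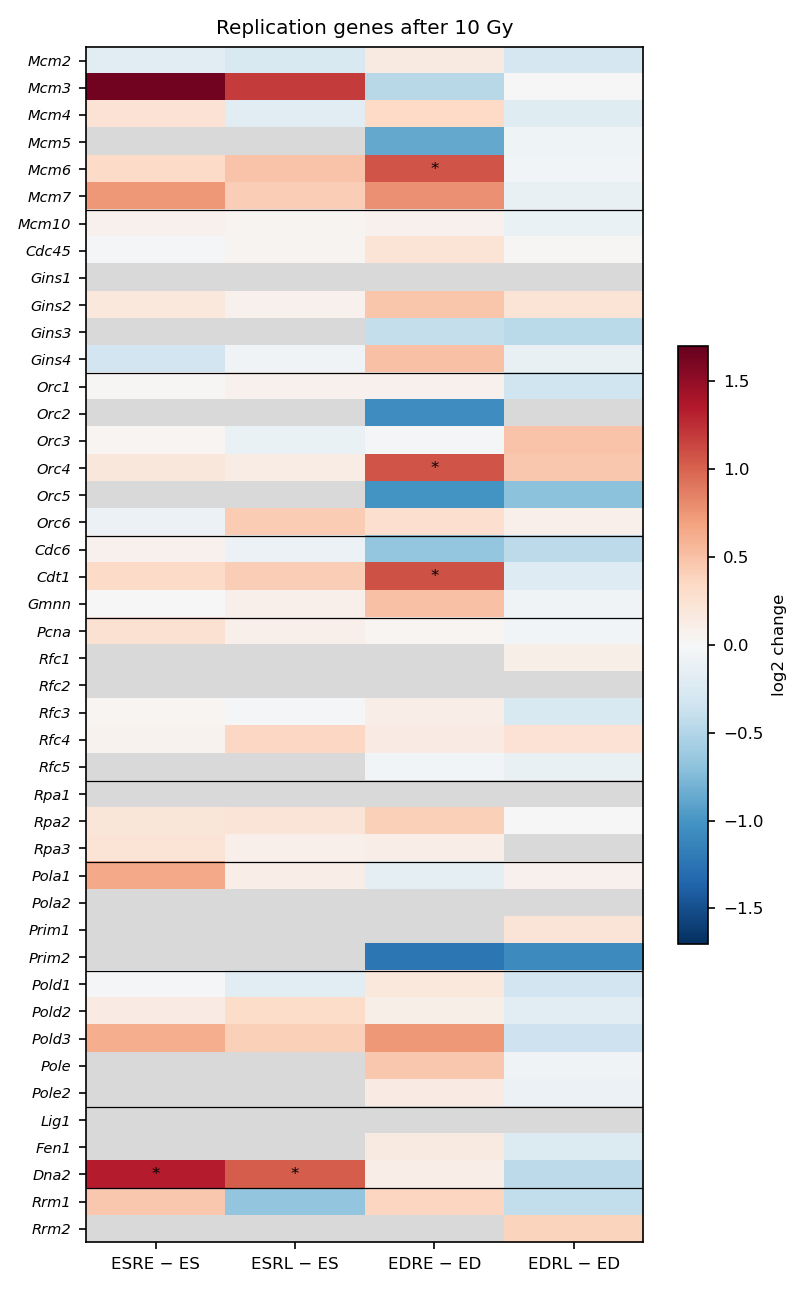
Log2 change after 10 Gy (color) for the 44 genes (rows, with lines between complexes) in ESRE and ESRL against ES and in EDRE and EDRL against ED (columns). Stars mark genes with an adjusted p under 0.05 and a change over 2-fold, gray cells genes without a test. The starred cells are Dna2 in ESRE and ESRL, and Cdt1, Mcm6 and Orc4 in EDRE, and EDRL has none.

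Whether the response to IR differed between the cell types was tested as an interaction. At 15 min 0 of 27 genes passed with limma, against 1.98% of all genes. An unadjusted p under 0.05 was found for 3 of the 27, against 18.4% of all genes. The nearest was Mcm3, at a difference of 2.12 (SE 0.47, adjusted p = 0.0516), which rests on 1 ES sample and on 2 EDRE samples, 1 of them dim. With marked spots kept 4 of 43 passed, Dna2, Mcm3, Pola1 and Prim2, against 2.46% of all genes. On the dim arrays Dna2 was then at -1.51 and -1.35, with -0.42 on replicate 1 of EDRE, and Mcm3 at 2.13 and 2.57, with 3.71 on replicate 1. Prim2 was not well above background on the dim arrays. With those arrays and the marked spots left out, 0 of 27 genes passed. At 4 h 1 of 26 genes passed, against 1.11% of all genes. It was Dna2, with 0.82 ± 0.20 (SD, n = 3) in ES, 1.85 ± 0.51 (SD, n = 3) in ESRL, -0.52 ± 0.16 (SD, n = 3) in ED and -0.97 ± 0.04 (SD, n = 3) in EDRL, so that the irradiated samples lay above their controls in ES cells and below them in ED cells. Its change was more positive in ES cells by 1.47 (SE 0.31, adjusted p = 0.0464). The call was lost in 13 of the 18 fits without 1 array, with a highest adjusted p of 0.131, and the difference lay between 1.24 and 1.74 in those fits. For Mcm3 the difference at 4 h was 1.18 (adjusted p = 0.272).

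**Figure D5:**
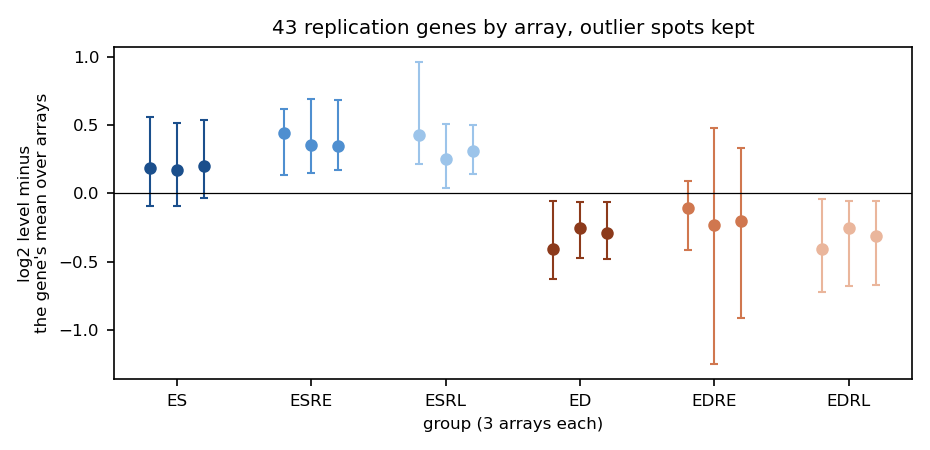
Log2 level of the 43 genes minus each gene's mean over the 18 arrays, with marked spots kept (vertical axis), by array and group (horizontal axis). Points are the median of the 43 genes and bars their quartiles. The medians lie between 0.17 and 0.20 in ES, between 0.25 and 0.44 in ESRE and ESRL, and between -0.41 and -0.11 in ED, EDRE and EDRL, with the widest bars on replicates 2 and 3 of EDRE.

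Seen over all groups, the 43 genes together were higher on every ES, ESRE and ESRL array than on any ED, EDRE or EDRL array on the scale of the 75th percentile. The median of their levels, each taken relative to its own mean over the arrays with marked spots kept, was 0.18, 0.17 and 0.20 in ES, 0.44, 0.35 and 0.34 in ESRE, 0.43, 0.25 and 0.31 in ESRL, -0.40, -0.26 and -0.29 in ED, -0.11, -0.23 and -0.20 in EDRE and -0.41, -0.25 and -0.31 in EDRL. The quartiles were -1.25 and 0.48 on replicate 2 and -0.91 and 0.33 on replicate 3 of EDRE, wider than on the other arrays. These medians use the scaling under which ED and ES cells differ by -0.18 over all genes, and with the array median as the scale the tested replication genes were higher in ED than in ES, as given above.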

How the data were processed

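RNA from the 18 samples was labeled with Cy3 and hybridized by the authors, 1 array per sample with no pooling. The scanner files the authors deposited hold the background-corrected processed signal, an intensity, not scaled between arrays. The labels name Agilent Feature Extraction 9.1 and the file headers 10.7.3.1. The value table the authors deposited, used as an alternative, is on the log2 scale and equals the log2 of the same signals with a floor of 5 minus a constant per array. Each array was scaled here by its 75th percentile, outlier spots (non-uniform, or apart from their replicate spots) were dropped (37831 of 39448 spots were no controls), and replicate spots were averaged. Probes well above background on every array of 1 or more compared groups were fitted with limma 3.58.1 in R 4.3.3, with all 6 groups in the fit, and adjusted by the Benjamini-Hochberg method over all probes. A gene stands for its brightest probe. A probe whose group had no usable spot was not tested. The number of arrays limits the precision. The fit was checked on simulated data with noise drawn independently for each array. That check does not cover an effect shared by arrays of 1 scan time, whose estimated correlation was 0.81.

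Members and lists were chosen with earlier results of these data known. Per-sample values were given by rule for up to 6 genes per direction that passed in ED against ES and in each IR comparison and interaction. They were also given for 12 set genes (Mcm2, Mcm5, Cdc6, Cdt1, Gmnn, Cdc45, Pcna, Pola1, Pole, Lig1, Rrm1, Rrm2). Other genes named were chosen after their values were seen. Alternatives were 15 listed ones and 1 added after seeing the data, the dim EDRE arrays left out.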

Additional observations from a re-analysis of the deposited data

Results flagged for a closer look

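The response of Dna2 to IR at 4 h differed between the cell types by the interaction test. The change in ESRL against ES minus that in EDRL against ED was 1.47 on the log2 scale (limma, standard error 0.31, adjusted p = 0.0464), with ESRL above ES in 3 of 3 samples and EDRL below ED in 3 of 3. Of all genes measured on all arrays of both groups, 10% lay above every ES sample in ESRL. In EDRL 30.4% lay below every ED sample. The difference for Dna2 kept its direction in the 12 other settings tried, with adjusted p from 0.00982 to 1.00, and in the 18 fits without 1 array, with adjusted p from 0.00391 to 0.131. It passed the threshold in 5 of the 12 settings and in 5 of the 18 fits.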

How the results depend on the processing

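No change that passed the test reversed its direction under an alternative, while changes that did not pass, many near 0, did so under some. With each array set to its median, 2 genes were lower and 5 higher in ED, and the median changes were 0.24 (ED), 0.25 (ESRE), 0.40 (ESRL) and 0.0366 (EDRL). The value table gave 5 higher in ED (26.2% of all genes), 2 changed in ESRL, 6 in EDRE, 2 differing between the cell types at 15 min and 0 at 4 h, with medians of 0.12 (ED), 0.28 (ESRE), 0.40 (ESRL) and 0.0729 (EDRL). Quantile normalization gave 0 in EDRE and 0 at 4 h between the cell types, with a median of 0.0342 in ESRE. Normexp gave 0 in ESRL and 0 between the cell types at 4 h, with a median of 0.10 in ESRE. With marked spots kept, 0 genes changed in ESRE (0.296% of all genes). Between the cell types 4 differed at 15 min (2.46% of all genes) and 0 at 4 h (0.803%). The medians were then -0.53 (ED) and -0.0748 (EDRL). The difference at 4 h had 0 genes with no filter on dim probes, and that at 15 min 1 with probes detected in all groups. With scan time as a random block, 3 genes were lower in ED and 0 passed in ESRE, ESRL, EDRE and between the cell types at 4 h. With only the groups compared in the fit, 2 passed in ESRE and 1 in EDRL, and 0 each in EDRE and ESRL. The methods' t-test gave 0 in ESRL and 0 in EDRE after adjustment, and 0 in EDRE and 1 in EDRL before it. Without the fold limit 11 were lower and 1 higher in ED. Without the dim EDRE arrays 0 changed in EDRE. Most counts here and in the fits without 1 array stand without the share of all genes called under the same setting. That share can change with the setting too, so these counts do not single out the replication genes. The causes were not tested. The probes detected are limited by signal over background, on the dim arrays most.

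Leaving out 1 array gave 6 to 7 genes lower and 0 higher in ED, 0 to 2 changed at 15 min and 0 to 2 at 4 h in ES cells, 0 to 10 at 15 min and 0 at 4 h in ED cells, and 0 to 6 differing between the cell types at 15 min (6 without EDRE replicate 1, 2 without ESRL replicate 1) and 0 to 1 at 4 h. The medians lay between -0.43 and -0.33 (ED), 0.12 and 0.20 (ESRE), 0.02 and 0.14 (ESRL), 0.13 and 0.45 (EDRE) and -0.17 and -0.10 (EDRL). Samples of the same replicate number did not deviate together in a regular way (correlations from -0.434 to 0.304). With 3 arrays per group this cannot decide whether the numbers pair samples, and the main fit used no pairing. With the replicate number as a block 0 genes passed in EDRE and 0 between the cell types at 4 h, in place of 3 and 1. The block moved no other count by over 1.5 times. For the genes that passed, 124 of 169 values under the other settings kept direction and threshold and 45 kept direction alone, as did 152 and 64 of 216 without 1 array.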
